A study of Mus musculus with 203 samples.

Results

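The HDM effect was examined in the airways of mice that had been exposed to both cigarette smoke (CS) and dexamethasone (DEX). The comparison set 10 libraries of HDM-exposed mice against 10 libraries of PBS controls, which made up 9.85% of the libraries of the series, and members were taken by the group name in the sample titles. HDM is an extract of house dust mite, a common aeroallergen, and CS exposure in mice models chronic obstructive pulmonary disease. HDM given together with CS models asthma-COPD overlap, and DEX is a synthetic glucocorticoid that activates the glucocorticoid receptor. All 20 libraries came from female mice of the Balb/C strain that were 18 to 20 weeks old at an 11 week endpoint. The HDM.CS.DEX mice received intranasal HDM on 5 days per week for 3 weeks and 3 times per week over weeks 4 to 11. The PBS.CS.DEX mice received phosphate buffered saline in place of HDM. Both groups inhaled CS 2 times per day on 5 days per week for 8 weeks, over weeks 4 to 11, and both were treated with DEX during week 11, so the controls carried every exposure except the allergen. The DEX dose and route are not given in the sources used here. Airways were separated from parenchyma by blunt dissection and total RNA of the whole tissue was sequenced, so fewer cells of a type and less RNA per cell cannot be told apart.

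Repeated inhaled allergen is known to draw lymphocytes, eosinophils and macrophages into the airway wall and to drive antibody class switching and mucus production. CS activates macrophages and neutrophils and induces detoxifying enzymes through the aryl hydrocarbon receptor and NRF2. Glucocorticoids repress many cytokine genes and induce targets such as Fkbp5 and Tsc22d3.

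Total counts were 23552500 to 33325773 per library in the HDM-exposed group (median 28613327) and 24553974 to 33527967 in the controls (median 29274919). The labelled tissue was checked against defining markers in the 20 airway and 20 parenchyma libraries of the same treatments. Krt5, a basal cell keratin, had a median of 9.6 CPM (read counts scaled by library size) in airways and 0.33 CPM in parenchyma, and the contractile gene Myh11 200 and 32.2 CPM. The cartilage gene Acan was detected in all airway libraries and at 0 in all parenchyma libraries. Scgb1a1, a secretory gene of club cells, differed less, with medians of 30025 and 23484 CPM and overlapping ranges. Sftpc, a surfactant gene of alveolar type II cells, had a median of 11027 CPM in airways and 15526 CPM in parenchyma, so the airway libraries also held alveolar RNA. Ucp1, which defines brown fat, exceeded 10 CPM in 4 HDM-exposed and 5 control libraries. The main counts and several lists are also given without the libraries over 10 CPM of Ucp1. That refit left such libraries out of all 8 airway groups fitted together, 3 to 6 per group. It compared 6 HDM-exposed with 5 control libraries and tested 17391 genes. The part of the smaller number of libraries in the calls lost there was not tested.

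HDM exposure changed a large share of the transcriptome in CS-exposed, DEX-treated airways. Of 18015 genes tested, 5372 (29.8%) passed at an adjusted p under 0.05 (limma-voom, Benjamini-Hochberg), 2694 of them higher and 2678 lower in HDM-exposed airways. Genes are described as called where the log2FC was also at least 1 in size, and 787 genes (4.37%) were called higher and 297 (1.65%) lower. The median log2FC was 1.46 over the genes called higher, -1.30 over those called lower and -0.02 over all genes tested. Over all genes tested, 2.15% were higher and 0.766% lower in every HDM-exposed library than in any control library, and 245 and 26 of these genes were also called. In the principal component analysis of the 500 most variable genes, the first component carried 50.7% of the variance. HDM-exposed libraries scored 13.09 to 40.58 on it and controls -51.52 to -1.61, with no overlap. Within each group the component also ordered libraries by Ucp1. HDM-exposed libraries over 10 CPM of Ucp1 scored 29.39 to 40.58 and the rest 13.09 to 26.85. Such controls scored -22.5 to -1.61 and the rest -51.52 to -29.43. The part of HDM and of neighbouring tissue in this component was not tested.

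**Figure D1:**
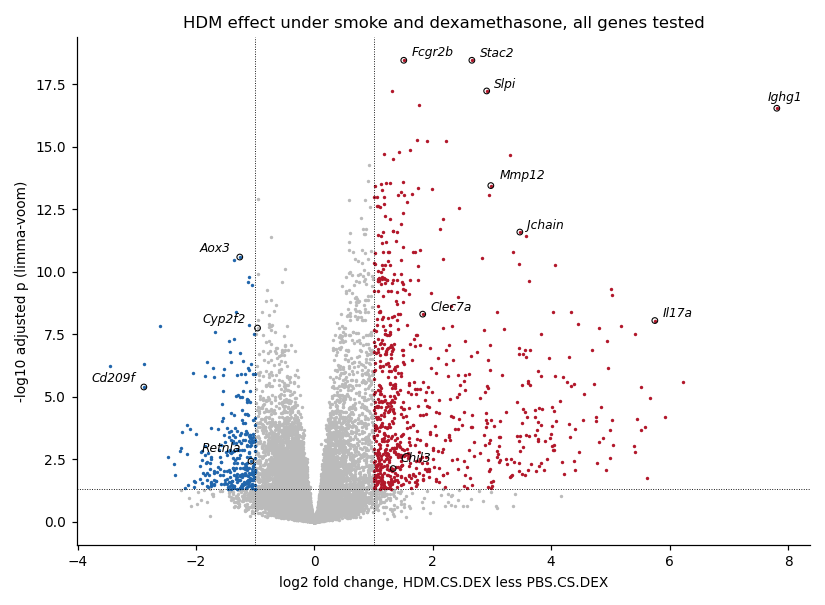
HDM effect in CS-exposed, DEX-treated airways for all 18015 genes tested, with the log2FC of HDM.CS.DEX against PBS.CS.DEX on the x axis and -log10 of the adjusted p on the y axis. The 787 genes called higher reach further from 0 than the 297 called lower, with Ighg1 at 7.81 the farthest of the labelled genes.

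The strongest increases were in antibody genes. Ighg1, the constant region of IgG1, ranged from 1604 to 4115 CPM in HDM-exposed libraries (median 2897) and from 0.906 to 45.4 CPM in controls (median 15.8). Every HDM-exposed library lay far above every control library. Its log2FC was 7.81 ± 0.61 (SE, n = 10 and 10, limma-voom adjusted p = 2.9e-17). Igha, the constant region of mucosal IgA, ranged from 678 to 1404 CPM (median 1048) against 37.2 to 308 CPM (median 153.3). The groups again did not overlap, and the log2FC was 2.95 ± 0.28 (limma-voom adjusted p = 8.4e-14). Jchain, which joins IgA and IgM into polymers, ranged from 1145 to 2689 CPM (median 1735) against 39.7 to 372.6 CPM (median 187.9), also without overlap, and rose by 3.47 ± 0.36 (limma-voom adjusted p = 2.6e-12). Mzb1, a chaperone of antibody-secreting cells, rose from a control median of 5.82 CPM to 55.2 CPM (log2FC 3.35 ± 0.37) and Igkc, the kappa light chain constant region, from 161.1 to 1989 CPM (log2FC 3.57 ± 0.37).

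The list of B cell and plasma cell genes had 33 members tested, of which 24 were called higher and 0 lower, with a median log2FC of 1.95. By role, 8 of 9 B cell genes, 2 of 6 germinal centre genes, 6 of 9 plasma cell genes and 8 of 9 immunoglobulin constant genes were called higher. Ms4a1, which encodes the B cell surface protein CD20, rose by 1.44 ± 0.43 with overlapping groups. Among genes whose symbol starts with Ighv, the heavy chain variable segments, 77 of 101 were called higher with a median log2FC of 3.47. Of the kappa variable segments (Igkv), 66 of 92 were called higher, with a median of 3.41. No segment of either family was called lower. Segments share sequence and the mice were Balb/C while the reference is C57BL/6, so values of single segments and of Ighg2c (4.99 ± 1.34) are uncertain.

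Among those segments, the largest rises without overlap were Ighv1-82 (6.22 ± 1.05), Igkv12-98 (5.92 ± 1.19), Ighv1-69 (5.59 ± 1.19), Ighv1-66 (5.52 ± 0.95), Igkv3-1 (5.52), Ighv1-80 (5.45 ± 1.10), Ighv5-15 (5.42 ± 1.38) and Igkv12-41 (5.42 ± 0.76). With Ighg1 and Il17a they made up the 10 largest rises named by rule. Ighg2b, the IgG2b constant region, rose from a median of 2.69 to 93.3 CPM (4.81 ± 0.66). Ighe, the IgE constant region, was chosen after its values were seen. It had medians of 0.22 CPM with HDM and 0 CPM in controls, with a log2FC of 2.62 ± 0.88 (limma-voom adjusted p = 0.018).

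IL-17 family cytokines came next in size. Il17a, the main cytokine of Th17 and gamma delta T cells, ranged from 2.86 to 7.17 CPM with HDM (median 5.61) and from 0 to 0.251 CPM in controls (median 0.0761). No control library came near the lowest HDM-exposed library. The log2FC was 5.75 ± 0.77 (limma-voom adjusted p = 9.0e-09). Il17f, its close relative, ranged from 1.12 to 3.99 CPM against 0 to 0.204 CPM and rose by 5.01 ± 0.61 without overlap. Il21, a follicular helper and Th17 cytokine, ranged from 0.197 to 3.67 CPM against 0 to 0.387 CPM, with overlap, and rose by 3.65 ± 0.62 (limma-voom adjusted p = 3.3e-06). In the list of the IL-17 axis, 7 of 15 tested members were called higher and 0 lower (median 0.99), 5 of 10 among cytokines and receptors and 2 of 5 among targets.

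Genes of type 1 and cytotoxic lymphocytes also increased. Ifng, the cytokine interferon gamma, ranged from 0.221 to 0.778 CPM with HDM (median 0.458) and from 0 to 0.126 CPM in controls (median 0.0732), without overlap (log2FC 2.90 ± 0.59, limma-voom adjusted p = 8.6e-05). Of 14 members of the CXCR3 axis and interferon gamma list, 8 were called higher and 0 lower (median 1.07). The 3 chemokines that bind CXCR3 were all called, among them Cxcl9 (3.75 ± 1.15) and Cxcl11 (2.94 ± 0.80). Cxcl9 lost its call without the libraries over 10 CPM of Ucp1, where the log2FC was 5.14. Of 11 cytotoxic lymphocyte genes, 10 were called higher (median 1.33), including Gzmb (1.83 ± 0.36), Gzmk (1.81 ± 0.51), Eomes (1.62 ± 0.46) and the granule gene Nkg7 (1.48 ± 0.37). All 11 had overlapping groups, and their summed level was 11.5 to 52.5 CPM against 4.62 to 32.6 CPM. The fit of only the groups compared called 7 of 10 tested. Of the 11, 7 were called with tissue levels as covariates, 8 with the run of library codes as a block and 11 with sample quality weights. A filter of 10 CPM left 4 tested and 1 called. Ccl5, a T cell chemokine, ranged from 7.68 to 35.3 CPM against 0.459 to 15.7 CPM and rose by 2.49 ± 0.52 with some overlap.

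Of 26 T cell genes, 12 were called higher and 0 lower (median 1.02). They included 7 of 11 costimulation and checkpoint genes, such as Tigit (2.54 ± 0.42), Pdcd1 (1.59 ± 0.30) and Ctla4 (1.58 ± 0.43), which encode inhibitory receptors. Il10, an anti-inflammatory cytokine, rose by 2.06 ± 0.46 from a median of 0.118 to 0.565 CPM. Cd3e, a core subunit of the T cell receptor complex, had medians of 6.84 and 2.95 CPM and did not pass (log2FC 0.85 ± 0.37, limma-voom adjusted p = 0.071), while Trac, the alpha chain constant region, was called (1.12 ± 0.43, limma-voom adjusted p = 0.04) but lost its call in 15 of 31 alternatives (0.69 to 1.85). Of the 26 genes, 7 were called with edgeR, with DESeq2, with the run of library codes as a block and in the fit of only the groups compared, and 18 (median 1.76) without the libraries over 10 CPM of Ucp1. The thymocyte genes Rag1 and Ptcra were at or near 0 in both groups, with highest values of 0 and 0.0908 CPM. In the list of lymphoid tissue chemokines, 4 of 11 members were called higher, Cxcr5 (1.29 ± 0.40), Lta (1.19 ± 0.30), Cxcl13 (1.07 ± 0.38) and Ltb (1.06 ± 0.28). Of the 11, edgeR called 1, DESeq2 2, the run block 3 and the fit of only the groups compared 5. Cxcl13 lost its call in 5 of 31 alternatives and Ltb in 8 of 31, each down to 0.85. Cxcr5 lost it in 2 of 31 and Lta in 2 of 30. The calls of Cxcl13 and Ltb were lost when single libraries were left out, at log2FC 0.96 to 0.99 without PBS X115, HDM X159 or HDM X179 for Cxcl13 and 0.93 to 0.98 without PBS X35, X175 or X195 or HDM X39 or X59 for Ltb.

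**Figure D2:**
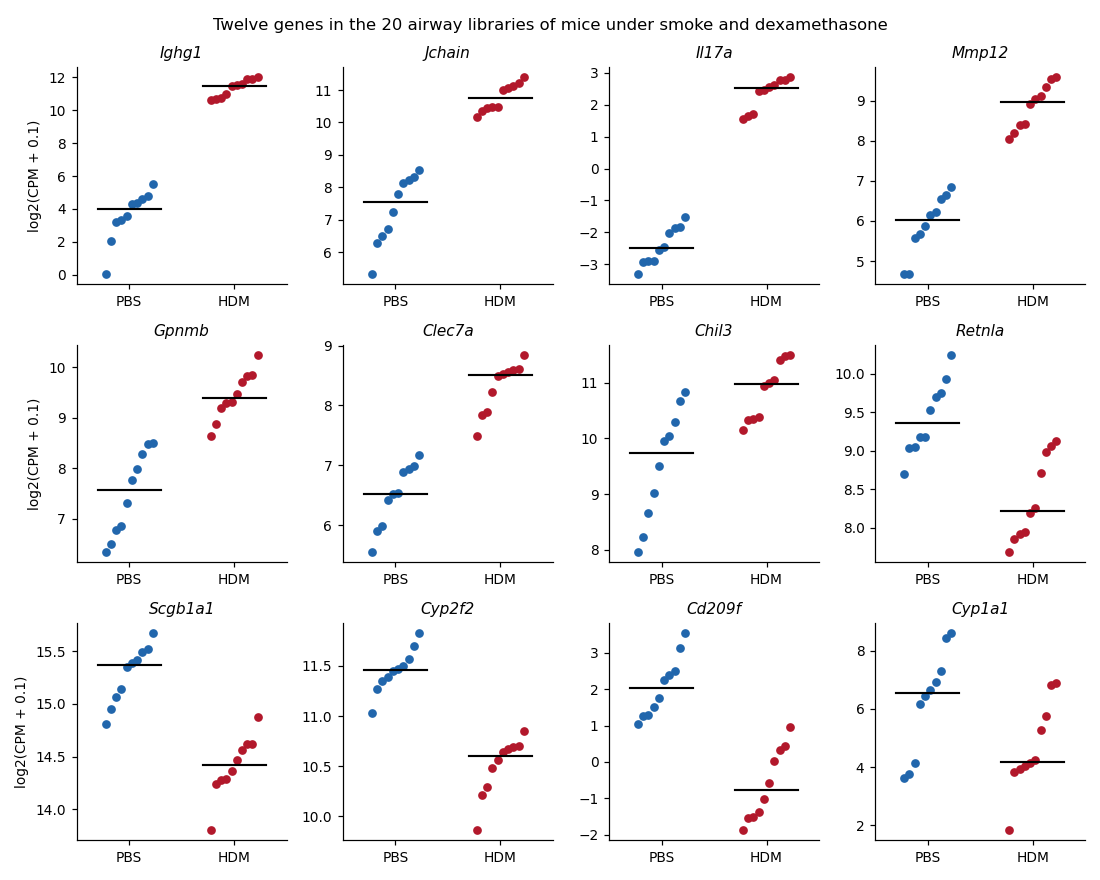
Levels of 12 genes in the 10 HDM.CS.DEX and 10 PBS.CS.DEX airway libraries, as log2(CPM + 0.1), with 1 point per library and a bar at the group median. Ighg1, Jchain, Il17a, Mmp12, Gpnmb and Clec7a are higher in every HDM-exposed library than in any control, Cyp2f2 and Cd209f are lower in every one, and the groups overlap for Chil3, Retnla, Scgb1a1 and Cyp1a1.

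Macrophage genes increased, with lipid-handling and matrix-degrading genes among the clearest. Mmp12, the macrophage elastase linked to emphysema, ranged from 263 to 765 CPM with HDM (median 503) and from 25.3 to 114.2 CPM in controls (median 64.9). The groups were separated by a wide gap. The log2FC was 2.98 ± 0.27 (limma-voom adjusted p = 3.6e-14). Gpnmb, a glycoprotein of lipid-laden macrophages, ranged from 396 to 1206 CPM (median 668) against 80.3 to 359.9 CPM (median 188.1) and rose by 1.96 ± 0.29 without overlap. Trem2, a lipid-sensing receptor, ranged from 34.1 to 69.9 CPM against 7.77 to 23.7 CPM and rose by 1.79 ± 0.19, also without overlap. Of 28 macrophage and monocyte genes tested, 14 were called higher and 1 lower (median 1.04), and 10 did not overlap. The exception was Marco, a scavenger receptor of alveolar macrophages, which fell by 1.51 on the log2 scale (SE 0.36, limma-voom adjusted p = 6.5e-04), from a control median of 50.8 CPM to 15.4 CPM. Csf1r, the growth factor receptor that most macrophages carry, rose by only 0.29 ± 0.08 and was not called.

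SPI1, also known as PU.1, is a master transcription factor of myeloid cells, and the study named it together with Il1rn, Ptafr, Itgax and Clec7a. Spi1 ranged from 27.6 to 55.2 CPM with HDM (median 42.3) and from 13 to 29.3 CPM in controls (median 23). The ranges met at their edges, and Spi1 rose by 0.83 ± 0.17 (limma-voom adjusted p = 1.3e-04), below the size required for a call. All 4 of the other genes were called higher. Clec7a, the beta-glucan receptor dectin-1, ranged from 180 to 458 CPM (median 364) against 46.5 to 143.4 CPM (median 91.9), without overlap, and rose by 1.83 ± 0.24. Ptafr, the platelet-activating factor receptor, rose by 1.51 ± 0.14 without overlap. Il1rn, the interleukin 1 receptor antagonist, rose by 1.79 ± 0.26 and Itgax, which encodes CD11c, by 1.70 ± 0.25, both with overlap. These genes were chosen in the study from other samples of the same series at an earlier time point.

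Pattern recognition receptors showed a similar count, with 7 of 16 toll-like and C-type lectin receptors called higher and 0 lower (median 0.94). The count was 4 with tissue levels as covariates (median 0.72), 6 with edgeR and with DESeq2, and 8 with no filter on low counts. Clec4e (Mincle), a receptor for glycolipids, ranged from 14.4 to 63.6 CPM with HDM (median 43.7) and from 3.23 to 14 CPM in controls (median 8.28). The lowest HDM-exposed library lay just above the highest control. It rose by 2.33 ± 0.32 (limma-voom adjusted p = 1.5e-08), and Clec4d, its neighbour and partner, rose by 1.62 ± 0.19. Fcgr2b, the inhibitory IgG receptor, ranged from 101.9 to 180 CPM against 42.6 to 65.5 CPM. The log2FC of 1.51 ± 0.11 had an adjusted p of 3.5e-19 (limma-voom), among the 3 smallest of the increases named. Clec4n (1.07 ± 0.20) and Tlr13 (1.08 ± 0.16) lay near the limit. They were at 0.99 and 0.97 without PBS X155, and each lost its call in 3 of 31 alternatives, with lowest values of 0.71 and 0.76.

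The 250 bases upstream of an annotated start are shown for 3 myeloid genes that rose and for Retnla, which fell. Spi1 and STAT6 are factors known to act on such genes. The genes were chosen after their values were seen. For Mmp12 and for Clec7a 2 promoters were listed, and the first listed is shown. Capitals mark GAGGAA or its reverse complement TTCCTC, the core that PU.1 is known to bind, and the STAT palindrome, which is TTC, any 4 bases and GAA. Sequences are from RefSeq (GRCm38.p6), written 5′ to 3′ on the gene's strand, for Mmp12 at chr9:7344147-7344396 (+), Clec4e at chr6:123289872-123290121 (-), Clec7a at chr6:129472780-129473029 (-) and Retnla at chr16:48842359-48842608 (+).
Mmp12: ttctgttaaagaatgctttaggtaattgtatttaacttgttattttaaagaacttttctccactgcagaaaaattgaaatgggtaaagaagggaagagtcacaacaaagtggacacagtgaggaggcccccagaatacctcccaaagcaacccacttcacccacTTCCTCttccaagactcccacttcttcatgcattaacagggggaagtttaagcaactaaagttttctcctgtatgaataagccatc
Clec4e: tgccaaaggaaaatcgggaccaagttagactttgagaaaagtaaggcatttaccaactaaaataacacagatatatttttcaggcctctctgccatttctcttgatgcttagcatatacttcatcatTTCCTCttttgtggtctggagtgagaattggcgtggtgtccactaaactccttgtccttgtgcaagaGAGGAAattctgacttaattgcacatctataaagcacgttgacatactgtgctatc
Clec7a: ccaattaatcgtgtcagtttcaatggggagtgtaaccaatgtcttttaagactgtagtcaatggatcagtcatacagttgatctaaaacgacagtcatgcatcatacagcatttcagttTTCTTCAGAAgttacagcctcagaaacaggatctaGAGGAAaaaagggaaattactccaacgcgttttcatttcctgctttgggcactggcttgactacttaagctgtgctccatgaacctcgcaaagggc
Retnla: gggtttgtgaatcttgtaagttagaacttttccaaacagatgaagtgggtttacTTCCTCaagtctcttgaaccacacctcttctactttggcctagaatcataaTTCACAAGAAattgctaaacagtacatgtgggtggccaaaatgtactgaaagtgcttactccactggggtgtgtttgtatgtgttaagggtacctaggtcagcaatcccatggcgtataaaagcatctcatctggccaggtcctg
GAGGAA occurred 1 time in the windows of Mmp12, Clec7a and Retnla and 2 times in that of Clec4e, and the STAT palindrome 1 time in those of Clec7a and Retnla. Over all 32851 promoter windows of the same length, 23.3% held GAGGAA and 5.85% the STAT palindrome on either strand, and the matches are a description of these letters only.

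Type 2 genes gave a mixed picture, beside 4.37% of all genes tested called higher and 1.65% lower. Of 17 type 2 cytokines and receptors tested, 1 was called higher, Il13, the cytokine that drives goblet cell change, with 0 to 0.172 CPM in HDM-exposed libraries and 0 to 0.0689 CPM in controls. Its log2FC of 1.73 ± 0.63 (limma-voom adjusted p = 0.03) lost its call at 1.61 without HDM X19, X39 or X99. Chil3, a chitinase-like protein of alternatively activated macrophages, ranged from 1131 to 2884 CPM (median 2008) against 248 to 1827 CPM (median 857). The ranges overlapped and it rose by 1.33 ± 0.40 (limma-voom adjusted p = 0.0075). Its reads can be shared with the near-identical Chil4. Its log2FC was 0.88 without the libraries over 10 CPM of Ucp1 and 0.97 with tissue levels as covariates, below the call.

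Retnla, a resistin-like protein that is a hallmark of alternative activation, ranged from 205 to 558 CPM with HDM (median 298) and from 414 to 1209 CPM in controls (median 658). Most HDM-exposed libraries lay below the controls. It fell by 1.07 on the log2 scale (SE 0.30, limma-voom adjusted p = 0.0038), and the call was lost without HDM X39 (-0.98), without PBS X175 (-0.97), without HDM X59 (just under the limit) and at -0.94 with tissue levels as covariates. The list of chitinase-like and alternative activation genes had 2 of 16 members called higher and 2 lower (median 0.13). Arg1, chosen after its values were seen, ranged from 2.61 to 12 CPM against 1.09 to 3.45 CPM and did not pass (log2FC 1.47 ± 0.62, limma-voom adjusted p = 0.061). Chit1, the true chitinase of macrophages, fell by 1.28 on the log2 scale from low levels, with its call lost at -0.97 without HDM X139.

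Of 15 eotaxins, monocyte chemokines and their receptors, 5 were called higher and 1 lower (median 0.54), and 2 and 0 without the libraries over 10 CPM of Ucp1. Ccl8, a ligand of CCR8 that attracts type 2 T cells, ranged from 11.8 to 44.3 CPM with HDM (median 31.2) and from 1.39 to 6.01 CPM in controls (median 3.99), and rose by 2.96 ± 0.47 without overlap. Ccl12, a monocyte chemokine, rose by 1.94 ± 0.37. Ccl24 (eotaxin-2), chosen after its values were seen, fell by 1.14 on the log2 scale (SE 0.35) from a median of 3.02 to 1.21 CPM, and lost its call at -0.72 without those libraries. Ccr3, the eotaxin receptor, rose by 1.76 ± 0.55. Of 8 eosinophil genes tested, 4 were called higher (median 1.09). They included Prg2, the granule major basic protein, at medians of 1.26 and 0.346 CPM (2.34 ± 0.47), and Ear2 (1.04 ± 0.31). Ear2 lost its call in 13 of 31 alternatives, down to 0.50, and Ccr3 in 1 of 30. The count was 3 with edgeR, DESeq2, the run block and tissue levels as covariates, and without the libraries over 10 CPM of Ucp1. It was 5 with all 160 libraries at 11 weeks and with sample quality weights. Epx, the eosinophil peroxidase that defines the cell type, was below the filter, at 0 to 0.0407 CPM with HDM and 0 to 0.151 CPM in controls.

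Some mast cell and mucus genes were called higher, beside 4.37% of all genes tested. Of 13 mast cell and basophil genes tested, 3 were called higher, among them the mucosal mast cell proteases Mcpt1, at 0.561 to 8.21 CPM against 0.181 to 0.583 CPM (3.24 ± 0.63), and Mcpt2 (1.70 ± 0.60, with its call lost at 1.46 without PBS X175). The 7 proteases tested had a median log2FC of -0.76, and 4 genes of the list were called lower with edgeR, with DESeq2 and with the run block. Of 22 mucus genes, 3 were called higher and 0 lower (median 0.02), and 1 was called higher without the libraries over 10 CPM of Ucp1. Itln1, a lectin of goblet cells, ranged from 6.13 to 37 CPM against 0.792 to 3.81 CPM. The groups did not overlap, and it rose by 2.92 ± 0.50 (limma-voom adjusted p = 3.9e-06). Tff2, a trefoil peptide, rose by 1.34 ± 0.45 and St6galnac1, a mucin sialyltransferase, by 1.64 ± 0.55. The gel-forming mucins Muc5ac and Muc5b and the goblet cell gene Clca1, chosen after their values were seen, did not pass. Muc5ac had a log2FC of 0.29 ± 0.49 and Muc5b of -0.42 ± 0.29. Clca1 ranged from 0.0922 to 16.6 CPM with HDM and 0.167 to 1.51 CPM in controls, and its log2FC of 1.96 ± 1.79 had a wide error.

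Neutrophil, IL-1 and complement genes were called higher in part. Of 18 neutrophil chemokines and genes, 7 were called higher and 1 lower (median 0.88), and 6 of the 7 were neutrophil cell genes such as Csf3r (1.42 ± 0.25) and Ly6g (1.62 ± 0.39). Without the libraries over 10 CPM of Ucp1, 4 were called higher (median 0.29), and 3 were with tissue levels as covariates (median 0.62). The cytokine Csf3 was called from low levels (1.47 ± 0.55) and lost its call in 8 of 28 alternatives (1.24 to 2.46), while the chemokines Cxcl1 (-0.20 ± 0.27), Cxcl2 (-0.12 ± 0.31) and Cxcl5 (0.81 ± 0.37) did not pass. The member that fell was Camp, an antimicrobial granule peptide (-1.23 ± 0.35). Il1b rose by 1.23 ± 0.26 and its decoy receptor Il1r2 by 1.06 ± 0.24, with the call of Il1r2 lost in 6 of 31 alternatives (down to 0.59). Of 13 IL-1 family and inflammasome genes, 4 were called higher and 11 passed the test as higher at any size. Of all 18015 genes tested, 2694 passed as higher. With tissue levels as covariates 2 of the 13 were called higher (median 0.49). Slpi, a secreted antiprotease, ranged from 153.6 to 547 CPM (median 253) against 27.6 to 56.5 CPM (median 37). All HDM-exposed libraries lay above all controls, and it rose by 2.91 ± 0.22 (limma-voom adjusted p = 5.9e-18).

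Further lists gave smaller counts. Of 17 complement genes 3 were called higher, led by Cfb, a factor of the alternative pathway (1.28 ± 0.22, without overlap). Of 18 dendritic cell and MHC class II genes 6 were called higher, including Clec9a (1.17 ± 0.27), Xcr1 (1.11 ± 0.35), Cd74 (1.08 ± 0.13) and H2-Ab1 (1.07 ± 0.19). The count was 2 with tissue levels as covariates and 9 without the libraries over 10 CPM of Ucp1. Xcr1 lost its call at 1.00 without PBS X35 and H2-Ab1 at 0.99 without HDM X99. Nos2, the inducible nitric oxide synthase, rose by 1.67 ± 0.35 and Slc7a2, an arginine transporter, by 1.27 ± 0.19, the 2 called of 12 arginine and nitric oxide genes. Oasl1 (1.35 ± 0.24) was the 1 called of 14 type I interferon response genes and Tbxas1, the thromboxane synthase (1.11 ± 0.16), the 1 called of 23 leukotriene and prostaglandin genes. Over all genes tested 4.37% were called higher, and these 2 counts lie near that share. Stac2, a gene outside the lists, shared the smallest adjusted p of all named genes with Fcgr2b. It ranged from 11.1 to 22 CPM against 1.87 to 3.55 CPM, without overlap, and rose by 2.66 ± 0.19 (limma-voom adjusted p = 3.5e-19).

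**Figure D3:**
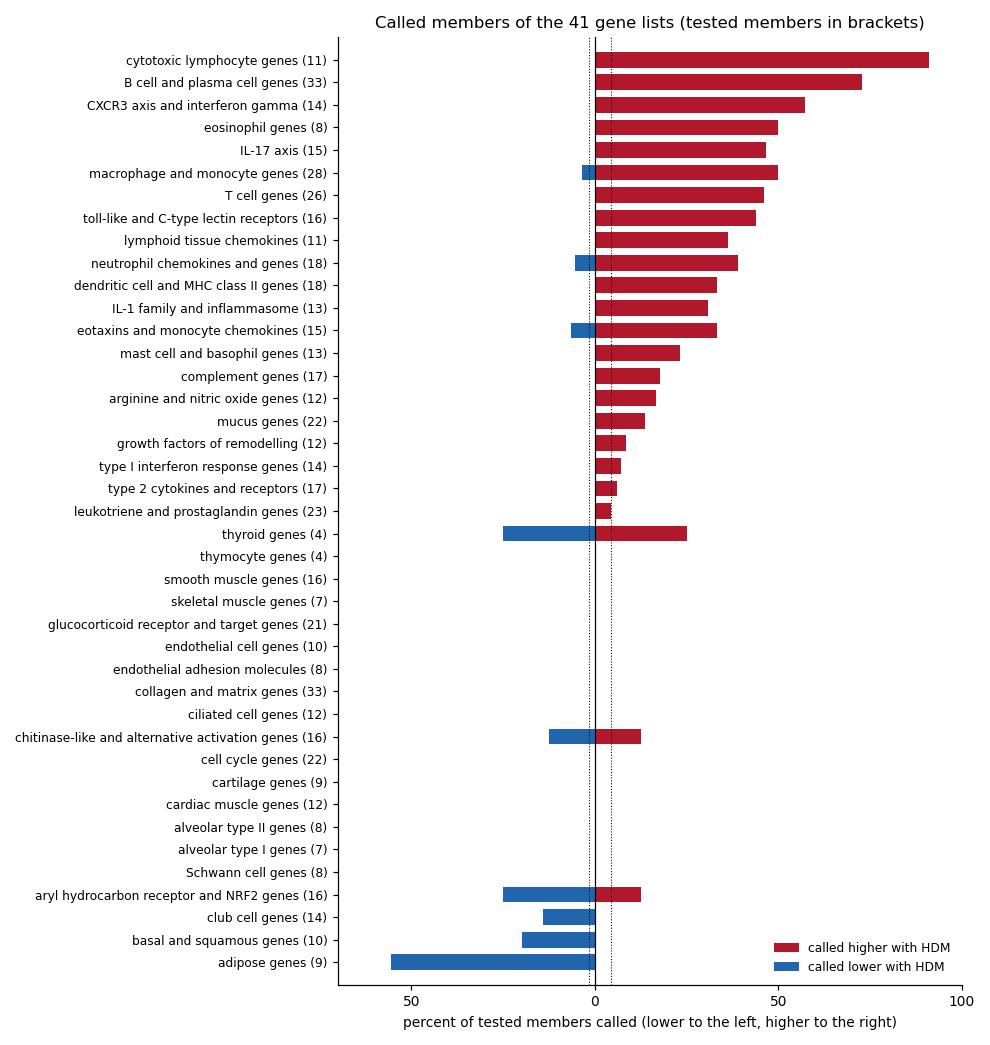
Percent of the tested members of each gene list that were called higher or lower in HDM-exposed airways under CS and DEX, with dotted lines at the share over all genes tested (4.37% higher and 1.65% lower). Cytotoxic lymphocyte genes (10 of 11) and B cell and plasma cell genes (24 of 33) have the highest shares called higher, and adipose genes (5 of 9) the highest share called lower.

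Airway epithelial genes were lower after HDM. Cyp2f2, a monooxygenase of club cells, ranged from 930 to 1853 CPM with HDM (median 1554) and from 2086 to 3631 CPM in controls (median 2821). Every HDM-exposed library lay below every control. It fell by 0.96 on the log2 scale (SE 0.13, limma-voom adjusted p = 1.8e-08), just short of a call. Scgb1a1, the main secretory protein of club cells, ranged from 14289 to 30013 CPM (median 21870) against 28638 to 52139 CPM (median 42351), overlapped at the edges, and fell by 0.87 (SE 0.16, limma-voom adjusted p = 2.1e-05). Of 14 club cell genes, 9 passed the test as lower, beside 2678 of all 18015 genes tested. Of the 14, 2 were called, among them Bpifa1, a secreted antimicrobial protein (-1.69 ± 0.59). The list's median was -0.85, and was -0.77 without the libraries over 10 CPM of Ucp1 and -0.38 with tissue levels as covariates. Bpifa1 lost its call at -1.50 to -1.54 without HDM X99 or X139 or PBS X135 or X155, and at -0.33 with tissue levels as covariates.

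All 12 ciliated cell genes passed the test as lower, none at the size of a call, with a median log2FC of -0.61 (-0.36 with tissue levels as covariates). Of all 18015 genes tested, 2678 passed as lower. Foxj1, the master regulator of motile cilia, ranged from 78.5 to 167.7 CPM against 118.9 to 263 CPM (log2FC -0.61 ± 0.18) and Ccdc39, a ciliary assembly factor, from 26.7 to 66.2 CPM against 56.3 to 94 CPM (-0.78 ± 0.18). Both overlapped. The basal cell marker Krt5 did not pass (-0.43 ± 0.61), while the squamous keratins Krt4 (-2.19 ± 0.87) and Krt13 (-1.82 ± 0.63) fell from low levels. Krt4 lost its call in 16 of 30 alternatives, at -0.34 with tissue levels as covariates, and Krt13 was at -1.55 and not called without HDM X139. The alveolar type II genes had 0 of 8 members called or passed (median 0.35), with Sftpc at 0.29 ± 0.23. The alveolar type I genes had 0 of 7 called (median 0.06).

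Detoxifying genes that smoke is known to induce were lower with HDM in part. Cyp1a1, the classic aryl hydrocarbon receptor target, ranged from 3.45 to 119.4 CPM with HDM (median 18.1) and from 12.1 to 389 CPM in controls (median 94.2). The ranges overlapped widely. It fell by 1.55 on the log2 scale (SE 0.50, limma-voom adjusted p = 0.014), with the call lost at -1.21 without HDM X159. Cyp1b1, another target of the same receptor, did not pass (-0.11 ± 0.17). Of 11 NRF2 targets, 7 passed the test as lower and 2 as higher, beside 2678 and 2694 of all 18015 genes tested. The 3 called lower were Aldh3a1 (-1.54 ± 0.31), Nqo1 (-1.36 ± 0.34) and Gsta3 (-1.20 ± 0.21), and the 2 called higher were the cystine transporter Slc7a11 (1.15 ± 0.21) and, chosen after its values were seen, haem oxygenase Hmox1 (1.03 ± 0.20). Hmox1 was near the limit and was at 0.72 without the libraries over 10 CPM of Ucp1.

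Among the 10 largest falls without overlap, that of Cd209f was the largest. Cd209f, a relative of DC-SIGN, ranged from 0.172 to 1.84 CPM with HDM (median 0.48) and from 1.96 to 11.5 CPM in controls (median 3.96), and fell by 2.88 (SE 0.50). Of 7 genes whose symbol starts with Cd209, 4 were called lower (median -1.56), and reads of these near copies can be shared. Cd209g, chosen after its values were seen, fell by 3.45 (SE 0.54) with overlapping groups. Atp13a5, a P-type ATPase, fell by 2.87 (SE 0.45) and Asgr2, an asialoglycoprotein receptor subunit, by 2.60 (SE 0.35). The others were Gsta2 (-1.68 ± 0.23), Unc79 (-1.54 ± 0.25), Acsm1 (-1.40 ± 0.22), Pclo (-1.36 ± 0.19), Cbs (-1.35 ± 0.15), Cyp4f15 (-1.33 ± 0.17) and Slc6a15 (-1.32 ± 0.24). Cbs makes cystathionine and Gsta2 conjugates glutathione. Of the falls without overlap, Aox3, an aldehyde oxidase, and Mycl, a MYC family factor, had among the smallest adjusted p (2.6e-11 and 1.6e-10, limma-voom), at -1.26 ± 0.14 and -1.10 ± 0.13. Slc6a15 was at -0.85 without the libraries over 10 CPM of Ucp1 and at -0.98 with tissue levels as covariates, below the call.

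Few glucocorticoid targets passed between the groups, both of which had received DEX. Of 21 receptor and target genes, 0 were called in either direction in the main limma-voom fit, with a median log2FC of -0.07. The fit of all 160 libraries at 11 weeks and that with the run of library codes as a block each called 1 lower. In the main fit 1 of the 21 passed as higher and 3 as lower, beside 2694 and 2678 of all 18015 genes tested. Fkbp5, a co-chaperone of the receptor, ranged from 35.9 to 84.7 CPM with HDM (median 39.9) and from 35.2 to 86.8 CPM in controls (median 40.7). Its log2FC was -0.05 ± 0.21. Tsc22d3 (GILZ) was at -0.20 ± 0.22 and the transcription factor Zbtb16 at -0.76 ± 0.42, and neither passed. Sgk1, a kinase that glucocorticoids and other signals induce, was the 1 member that passed as higher (0.89 ± 0.14, limma-voom adjusted p = 2.1e-07).

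Structural and remodelling genes showed few calls, beside 4.37% of all genes tested called higher and 1.65% lower. Of 33 collagen and matrix genes 0 were called, 6 passed as higher and 2 as lower (median 0.08). Of all 18015 genes tested, 2694 passed as higher and 2678 as lower. Mmp14, a membrane collagenase, rose by 0.70 ± 0.09. Of 12 growth factors of remodelling 1 was called, Inhba, the activin A subunit, which ranged from 6.85 to 47.6 CPM against 2.29 to 5.79 CPM without overlap and rose by 2.34 ± 0.36 (limma-voom adjusted p = 3.3e-07). Of 16 smooth muscle genes 0 were called (median -0.40), with Acta2 at -0.41 ± 0.28. Of 22 cell cycle genes 0 were called, and Pcna rose by 0.26 ± 0.06. Of 10 endothelial genes 0 were called, and Emcn, a venous and capillary mucin, rose by 0.63 ± 0.10. Ackr1, a venular chemokine receptor among the 8 endothelial adhesion molecules, rose by 0.94 ± 0.25 and none of that list was called.

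Adipose genes were lower in HDM-exposed airways. The summed level of 9 adipose genes was 294 to 762 CPM (median 364) in HDM-exposed libraries and 357 to 2272 CPM (median 738) in controls, and 5 were called lower (median -1.39), among them Lep (-2.37 ± 0.68), Plin1 (-1.80 ± 0.69), Cidec (-1.69 ± 0.52) and Cfd (-1.39 ± 0.52). Plin1 lost its call in 16 of 31 alternatives (-2.38 to -0.06) and Cfd in 13 of 31 (-1.66 to -0.00). Lep lost it in 2 of 31 and Cidec in 1 of 31. The fit of only the groups compared and the fit with no filter on low counts called 2 of the 9 lower. edgeR and DESeq2 called 6, and the run block 7. Adipoq, the defining adipocyte hormone, did not pass (-1.37 ± 0.61). Without the libraries over 10 CPM of Ucp1, 2 of the 9 were called lower. With the levels of 4 tissue lists as covariates, adipose genes among them, none was called lower. Cardiac muscle genes summed to 182.8 to 1672 CPM (median 708) against 262 to 2368 CPM (median 1471), with 0 of 12 called (median -0.86). Cartilage genes (0 of 9, median -0.60), skeletal muscle genes (0 of 7, median -0.51) and Schwann cell genes (0 of 8, median -0.37) had medians in the same direction. The run block called 3 cardiac, 2 cartilage, 1 skeletal muscle and 1 Schwann cell gene lower. Sample quality weights called 3 cardiac genes and 1 skeletal muscle gene lower. Cardiac genes called lower numbered 2 with all 160 libraries at 11 weeks, 1 with DESeq2 and with only the groups compared, and 0 with edgeR. Of 4 thyroid genes tested, Dio1 was called higher (1.31 ± 0.32) and Tshr lower (-1.40 ± 0.50, with its call lost in 8 of 30 alternatives, -1.75 to -0.27), while Tg did not pass (0.37 ± 0.25). The part of these tissues in the other falls was not tested. The share of genes called lower was 1.09% without the libraries over 10 CPM of Ucp1, and 75.1% of those genes were among the 297 (47.8% of the 297). It was 0.855% with the covariates, and 70.8% of those genes were among the 297 (36.7%). The corresponding counts of genes called higher were 846 and 823, with 619 and 641 shared with the 787.

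**Figure D4:**
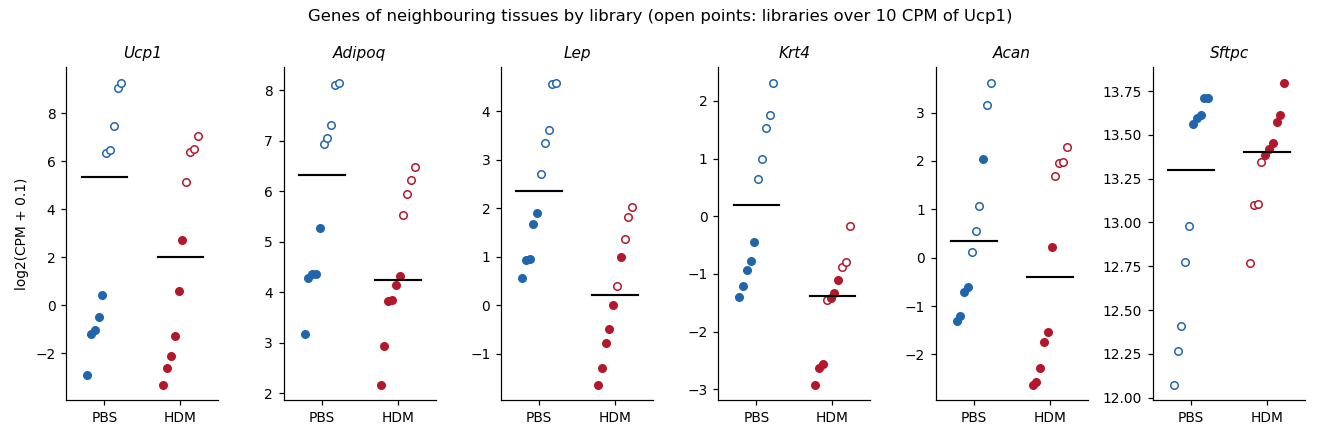
Levels of Ucp1 and Adipoq (adipose), Lep (adipose), Krt4 (squamous epithelium), Acan (cartilage) and Sftpc (alveolar type II cells) in each of the 20 airway libraries, as log2(CPM + 0.1), with a bar at the group median and open points for the 9 libraries over 10 CPM of Ucp1. The 5 control libraries among them are the lowest controls for Sftpc and the highest for Adipoq, and Ucp1 spans 0 to 132.3 CPM with HDM and 0.0349 to 618 CPM in controls.

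The HDM effect was then compared with that in CS-exposed airways without DEX, which asks whether a week of DEX altered the allergen response under CS. The 2 pairs of groups share no libraries. The test of the difference between the HDM effects called 0 genes (0%) of 18015 by limma-voom, at any size, with 994 at an unadjusted p under 0.05 and a smallest adjusted p of 0.15. edgeR and DESeq2 also called 0, with 421 and 524 genes higher and 582 and 466 lower at an unadjusted p under 0.05. The median SE of the difference was 0.17 on the log2 scale. The intervals of single differences were wide enough to hold sizeable changes. The difference for Mmp12 was 0.22 (95% interval -0.58 to 1.02), for Clec7a -0.13 (-0.83 to 0.56) and for Il17a 0.18 (-1.71 to 2.06).

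Other genes had differences whose unadjusted intervals lay away from 0 but which failed the correction. Chance alone gives about 5% of genes such an interval. Of 18015 genes tested 994 had one, so the next values are not told apart from chance. Ccl5 had an HDM effect of 2.49 with DEX and 0.35 without, a difference of 2.15 (0.93 to 3.36, limma-voom adjusted p = 0.77). Retnla had effects of -1.07 and 0.09, a difference of -1.16 (-2.02 to -0.30, limma-voom adjusted p = 0.89). Cytotoxic lymphocyte genes had a median HDM effect of 1.33 with DEX and 0.39 without, and T cell genes 1.02 and 0.41, with no member called as different. Of the genes called higher under CS and DEX, 64.7% were also called higher under CS alone, which is 75.4% of the genes called there. Of the genes called lower, 45.5% were shared, which is 42.1% of those called under CS alone.

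The comparison with DEX-treated airways without CS asks whether smoke altered the allergen response under DEX. Without CS, HDM called 1379 genes higher and 1073 lower. Of the genes called higher under CS and DEX, 91.6% were also called higher there, which is 52.3% of that longer list, and of those called lower 85.2%, which is 23.6%. The test of the difference called 25 genes (0.139%) with a larger or more positive HDM effect with CS and 99 (0.55%) with a smaller or more negative one. All 99 had an HDM effect above 0 without CS, and 96 of them were called higher there. With CS, 39 of the 99 were called higher and 2 lower. Of the 25, 23 were called lower without CS and 3 with CS.

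Members called as different in either direction numbered 6 of 28 macrophage and monocyte genes and 5 of 18 neutrophil chemokines and genes. Mmp12 rose by 5.72 ± 0.31 without CS and by 2.98 ± 0.27 with CS, a difference of -2.75 ± 0.41 (limma-voom adjusted p = 7.3e-06). Trem2 rose in both settings, with a difference of -1.38 ± 0.30, and Spp1, the secreted matrix protein osteopontin, with -1.80 ± 0.45. Cxcl5, a neutrophil chemokine made by epithelium, rose by 3.35 ± 0.46 without CS and did not pass with CS (0.81 ± 0.37), a difference of -2.54 ± 0.59 (limma-voom adjusted p = 0.0067). Saa3, an acute phase protein, had effects of 4.73 and 1.88, a difference of -2.84 ± 0.50. Lcn2, an iron-binding antimicrobial protein, had effects of 2.65 and 0.83, a difference of -1.82 ± 0.39. Cxcl1, Cxcl2 and Ccl20 had effects of -0.20, -0.12 and 0.07 with CS and of 1.32, 1.50 and 1.35 without. Their differences lost the call in 7 of 51, 27 of 50 and 32 of 51 alternatives.

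Levels in the 4 groups show where the differences lay. The median of Mmp12 in DEX-treated airways was 1025 CPM with HDM and 17 CPM with PBS in the absence of CS, and 503 and 64.9 CPM with CS. The median of Saa3 was 321 and 14.6 CPM without CS and 341 and 96.4 CPM with CS. For Vnn1, a pantetheinase, the medians were 84.3 and 11.4 CPM without CS and 68.9 and 71.4 CPM with CS, and the difference in HDM effect was -2.89 ± 0.36 (limma-voom adjusted p = 7.2e-08). For Retnla they were 233 and 116.4 CPM without CS and 298 and 658 CPM with CS. For all 4 genes the PBS median was higher with CS than without, and that difference between PBS groups was not tested. The HDM effect on Retnla was 0.99 ± 0.26 without CS and -1.07 ± 0.30 with CS, a difference of -2.06 ± 0.40 (limma-voom adjusted p = 6.7e-04).

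Immune and epithelial genes of other kinds shared this direction. Igha rose by 4.57 ± 0.28 without CS and by 2.95 ± 0.28 with CS (difference -1.62 ± 0.40), and Pigr, the epithelial transporter of IgA, by 2.00 and 0.58 (difference -1.42 ± 0.19). Pdcd1 rose by 3.83 and 1.59 (difference -2.24 ± 0.43) and Il1rn by 3.60 and 1.79 (difference -1.81 ± 0.41). Slc26a4 (pendrin), an anion exchanger of mucous cells, had effects of 3.00 and 0.98 (difference -2.02 ± 0.45). For Ighg1 and Il17a the difference did not pass, at -0.77 ± 0.88 and -1.88 ± 1.17. In the other direction, Asgr1, an asialoglycoprotein receptor subunit, fell by 4.09 on the log2 scale without CS and by 1.82 with CS, a difference of 2.27 ± 0.42 (limma-voom adjusted p = 3.8e-04). Itih2, a hyaluronan-binding protein, had effects of -2.70 and -1.07 (difference 1.62 ± 0.26), the second at -0.93 and not called without HDM X99. Cyp2f2 had effects of -1.61 ± 0.13 without CS and -0.96 ± 0.13 with CS. Its difference of 0.65 ± 0.19 passed the test (limma-voom adjusted p = 0.037) but was below the size of a call.

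**Figure D5:**
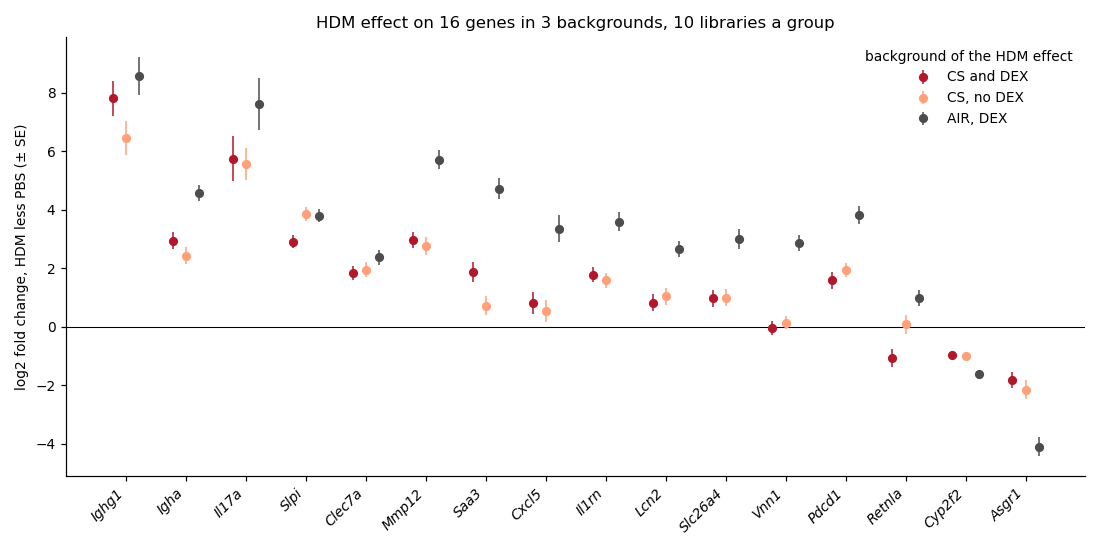
HDM effect (log2FC ± SE, 10 HDM-exposed and 10 PBS libraries each) on 16 genes in airways with CS and DEX, with CS alone and with DEX alone. The HDM effects on Mmp12, Saa3, Cxcl5, Lcn2 and Vnn1 are larger with DEX alone than in both CS-exposed settings, and Retnla is above 0 with DEX alone (0.99) and below 0 with CS and DEX (-1.07).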

How the data were processed

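The deposited table holds estimated counts per gene that the authors made from total RNA libraries (TRIzol, Illumina) with a mm10 pipeline, for which the submitters' processing notes name bcl2fastq 2.20.0.422, STAR 2.5.1b, RSEM 1.2.31 and kallisto 0.44.0. Which tool gave the deposited expected counts is not given in the sources used here, nor is the use of strand, so overlapping and antisense genes are uncertain. Fractional values (20.3% of those above 0) were rounded to whole counts. Of 43346 identifiers, 42462 matched GENCODE M21 without the version.

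Counts were normalized by TMM (edgeR 4.0.16) and fitted with limma-voom (limma 3.58.1, R 4.3.3) over the 80 airway libraries of 8 groups at 11 weeks, which share 1 estimate of the spread. A gene was tested if 9 or more libraries reached the CPM that 10 counts give in a library of median size. Calls were made at a Benjamini-Hochberg adjusted p under 0.05 and a log2FC of at least 1 in size, with two-sided tests. Differences of HDM effects were contrasts in the same fit. CPM levels use TMM library sizes, except in the check of airway against parenchyma, which uses total counts. Values over replicates are log2FC ± SE. The labels name separate samples but not the animals behind them, so p-values measure the spread between these samples. No library pair was alike within sampling noise. The fit was tested on simulated data. DESeq2 1.42.0, the edgeR quasi-likelihood test, other filters and normalizations, and leaving out each library were alternatives.

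The genes named were the 10 largest called changes in each direction without overlap and with a mean of at least 1 CPM in the higher group, the 3 smallest adjusted p in each direction, up to 4 called members of each of 41 gene lists (the member with the smallest adjusted p where none was called), cell type markers, 10 genes of the SPI1 set, glucocorticoid targets and smoke-responsive genes, the 5 largest differences in each direction for each pair of HDM effects and the list members called there. Members and lists were chosen with earlier results of these data known. The codes X1 to X200 of the libraries fall into runs of 20, and the labels do not say what a run is. Deviations of HDM and PBS libraries of 1 run correlated at -0.42 to 0.64 (median -0.088, over 0.1 in 4 of 10 pairs), so runs were not treated as pairs. Some genes that this rule names are not reported here.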

Additional observations from a re-analysis of the deposited data

Results flagged for a closer look

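In 18 of 345 groups of 10 libraries examined, 1 library lay far from the others by Dixon's ratio of its gap to the group's range, and chance gives about 1 in 20. PBS X195 was the low library for the cardiac and skeletal muscle genes Ryr2 (ratio 0.686, 14.3 CPM), Ckm (0.576), Myh6 (0.568), Tnni3 (0.539) and Myl7 (0.498), and for Ackr1 (0.508). HDM X199 was low for Ackr1 (0.602), HDM X99 for Itih2 (0.51) and Acsm1 (0.476), HDM X119 for Cxcl13 (0.485), and HDM X39 for Prx (0.615) and Tsc22d3 (0.503). HDM X159 was high for the glucocorticoid targets Zbtb16 (0.681, 28.4 CPM) and Fkbp5 (0.506, 84.7 CPM), and PBS X175 for Fkbp5 (0.517, 86.8 CPM). HDM X59 was high for Dio1 (0.469). PBS X95 was low for Syk (0.542) and PBS X155 for Spi1 (0.485).

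The HDM effect under DEX differed between CS-exposed and air-exposed airways for 37 genes given here (limma-voom contrast, adjusted p under 0.05 and a difference of at least 1). The difference in log2FC, with CS less without, was lowest for Spink5 (-3.21), Gm14461 (-3.05), Vnn1 (-2.89), Mab21l3 (-2.85) and Rph3a (-2.85), the 5 largest in that direction. Among members of the neutrophil, macrophage and lectin receptor lists it was -2.75 for Mmp12, -2.54 for Cxcl5, -2.13 for Camp, -1.80 for Spp1, -1.62 for Cxcl2, -1.52 for Cxcl1, -1.51 for Clec4d, -1.38 for Trem2, -1.30 for Msr1, -1.25 for Clec4n, -1.01 for Apoe and -1.01 for Tlr13. Secreted or epithelial products are given next, and they include Il1rn of the macrophage and monocyte list. The difference was -2.84 for Saa3, -2.06 for Retnla, -2.02 for Slc26a4, -1.82 for Lcn2, -1.81 for Il1rn, -1.49 for Ccl9, -1.42 for Pigr, -1.29 for Ccl20, -1.10 for Cfb and -1.04 for Chil1. Among lymphocyte genes it was -2.24 for Pdcd1, -1.65 for Tnfrsf9 and -1.62 for Igha. It was -2.07 for the cystine transporter Slc7a11 and -1.32 for the complement receptor C3ar1. Positive differences were those of Asgr1 (2.27), Sfrp4 (2.18), Hes2 (1.67), Itih2 (1.62) and Col12a1 (1.07). Several of these calls were lost in other fits, for Ccl20 in 32 of 51 alternatives, Cxcl2 in 27 of 50, Apoe in 23 of 51, Tlr13 in 15 of 51 and Chil1 in 12 of 51.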

How the results depend on the processing

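Alternatives are given as the share of genes tested that was called, against 4.37% higher and 1.65% lower. A filter of 10 CPM gave 3.06% and 0.711% of fewer genes, 366 and 85 genes. The run of 20 library codes as a block gave 2.65% lower, and 2 alternatives chosen after seeing the data gave 0.855% lower (levels of 4 tissue lists as covariates) and 1.09% (without the libraries over 10 CPM of Ucp1). Leaving out 1 library gave 4.09% to 4.91% higher and 1.25% to 2.29% lower. For the HDM effect under DEX with less without CS (0.139% higher, 0.55% lower), all 160 libraries at 11 weeks gave 0.285% higher, DESeq2 0.233% and 0.838%, the 10 CPM filter 0.0585% and 0.385%, sample quality weights 0.211% higher, the run block 0.272% higher and the tissue covariates 0.261% and 0.855%. Leaving out 1 library gave 0.117% to 0.278% higher, with 0.228%, 0.278%, 0.211% and 0.217% without X27, X95, X147 and X199, and 0.433% to 0.616% lower. For the genes called, HDM effect under CS with less without DEX, higher, no filter on low counts gave 1 gene (0.00344%) and leaving out 1 library 0 to 0. The share of variance on the first 2 principal components was 75.2%, and was 58.6% with all genes, 76.5% after the DESeq2 variance stabilizing transformation and 72.9% with scaled genes. Beyond the number of genes tested, the cause was not tested. Of 170 called values examined, 101 stayed called under every alternative that tested them, 69 lost the call under at least 1 and none changed sign. Genes below about 1 CPM, such as Il13 and Ighe, rest on few counts.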
